A study of Mus musculus with 88 samples.

Results

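Cluster 7 held 292 of the 4949 kept single cells of a mouse embryoid body (EB) time course, or 5.90%, and its members were the cells that the authors' own clustering at resolution 2.5, which gave 22 clusters, assigned to number 7. Of these 292 cells, 224 came from the wild-type (WT) library of day 4, 21 from WT day 0, 14 from WT day 7, and 19 from WT day 10. The remaining 14 cells were from PRC2 mutants: 9 from Mtf2 null day 4, 3 from Jarid2 null day 4, 1 from Eed null day 4, and 1 from Eed null day 7. EBs are aggregates of embryonic stem cells (ESCs) that differentiate without added lineage-directing factors. ESCs were kept in serum with leukemia inhibitory factor (LIF), aggregated, and allowed to differentiate once LIF was removed, and live cells were sorted into multiwell plates. There was 1 library per genotype (WT, Mtf2 null, Jarid2 null, Eed null) and day (0 for undifferentiated cells, then 4, 7, and 10), which makes 16 libraries without replicates. All levels below are therefore descriptions without a test.

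Polycomb repressive complex 2 (PRC2) trimethylates lysine 27 of histone H3 at silent developmental genes, with Eed as a core subunit and Mtf2 and Jarid2 as alternative accessory subunits. ESCs in serum with LIF sit in a pluripotent state held by STAT3 signaling and a naive transcription factor network. Once LIF is gone, FGF and Nodal signals carry the cells into a formative, epiblast-like state marked by Otx2, Fgf5, and Dnmt3b, from which the germ layers arise.

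The strain label was E14 for all 4 genotypes, while the study's methods took the null lines from separate sources. Hprt, the purine salvage gene, parted the genotypes: WT cells outside cluster 7 held 1.07 to 3.51 UMI CPM (unique molecular identifiers of a gene, each counting 1 captured molecule, with every pool of cells scaled to the same total), and mutant cells outside it 415 (Eed null), 470 (Mtf2 null), and 525 (Jarid2 null). In cluster 7 the 278 WT cells held 0 UMIs of Hprt, which allows up to 2.48 UMI CPM in the 224 cells of day 4 (3 counts of their total), and the 14 mutant cells held all 17, or 328 UMI CPM. The cells of cluster 7 thus carried the Hprt level of their labels, and mutation and parental line cannot be told apart in any comparison of genotypes below.

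At day 4 the cluster made up most of the WT library and very little of the mutant libraries. It held 224 of 331 WT day 4 cells (67.7%, Clopper-Pearson 95% interval 62.3 to 72.7, which like all intervals here covers counting error only). At the same day it held 2.72% of Mtf2 null cells (1.25 to 5.10), 0.935% of Jarid2 null cells (0.193 to 2.71), and 0.313% of Eed null cells (0.00791 to 1.73). The WT shares at the other days were 6.18% (3.86 to 9.29) at day 0, 4.43% (2.44 to 7.32) at day 7, and 8.88% (5.43 to 13.5) at day 10. The 8 further libraries, those of the null lines at days 0 and 10 and of Mtf2 null and Jarid2 null at day 7, held 0 cells of the cluster, with upper limits of 1.06% to 1.81% of a library by the same method. The other 107 WT day 4 cells were 99 cells of cluster 12 and 8 cells elsewhere. Within the WT day 4 plate, 71.3% of kept cells in the earlier wells and 63.8% in the later wells, split at the middle of the plate, were in the cluster. Among cells with at least 2500 UMIs the WT day 4 share was 67.6%.

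**Figure D1:**
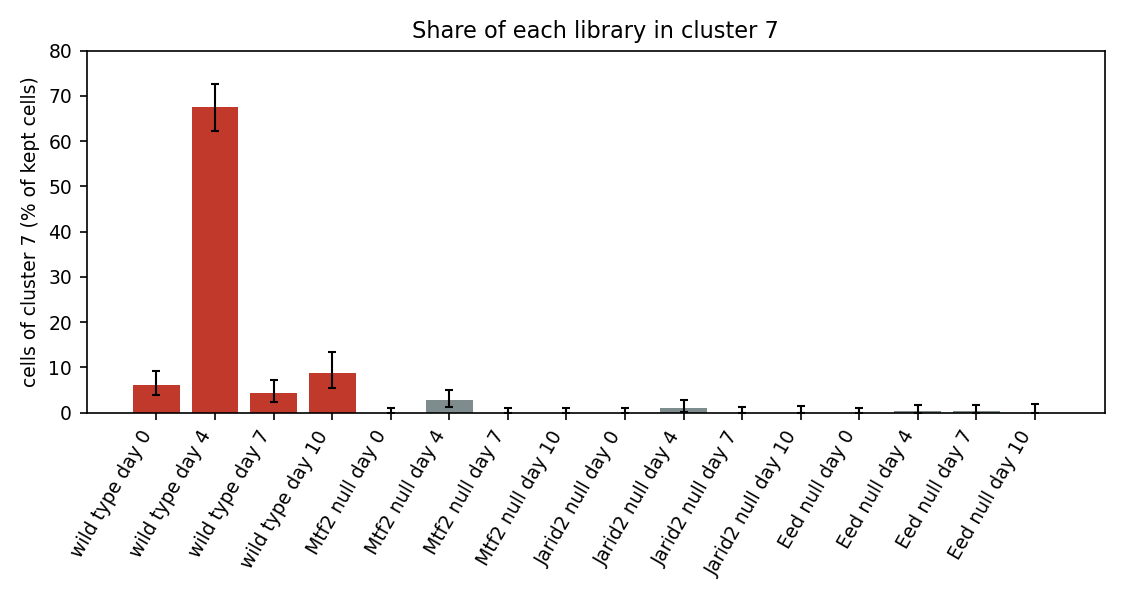
Share of the kept cells of each of the 16 libraries (horizontal axis) that lay in cluster 7, in percent from 0 (vertical axis), with WT in red, mutants in grey, and Clopper-Pearson 95% intervals. WT day 4 stands at 67.7%, and the other 15 libraries lie between 0 and 8.88%.

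The label of early cells was checked against marker genes. Pluripotency genes were present in the pooled cells of the cluster. Sox2 was at 535 UMI CPM, Utf1, a chromatin-bound pluripotency marker, at 657, Pou5f1 at 106, Nanog at 110, and Esrrb, a naive-state nuclear receptor, at 125. The 12 core pluripotency genes summed to 5909, 3030, 4270, and 4129 UMI CPM in its WT cells of days 0, 4, 7, and 10. They summed to 3462 in the whole cluster, below cluster 3 (8159), cluster 12 (5353), and all other cells (5165). Single germ layer genes were low. T (primitive streak) was at 0.634 UMI CPM, Sox17 and Foxa2 (endoderm) at 1.90 and 0.634, and Cdx2 (trophoblast) at 0. Pax6 (neural) was at 7.61, and Gata4 and Gata6 (cardiac mesoderm and yolk sac endoderm) at 7.61 and 10.1. Whole lists were not near 0. Definitive endoderm genes summed to 524 UMI CPM, against 441 in cluster 3 and 713 in all other cells. Neural genes summed to 278, against 601 and 957, and mesoderm and cardiac genes to 184, against 710 and 829. Of 18 measured primitive streak genes 9 were at 0, and the 18 summed to 33.6 UMI CPM against 216 in all other cells. In the cluster's WT day 7 cells, neural and mesoderm genes summed to 909 and 515, against 1288 and 1340 in the cells beside them. Pooled over all days, the levels are those of undifferentiated or early differentiating cells, as labelled. The 19 cells of WT day 10 held 1103 UMI CPM of the embryonic globin Hba-x, against 11782 in the other cells of that library and 0 in the WT day 4 cells of the cluster, so its 78.6 UMI CPM in the cluster as a whole came mainly from day 10.

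Less RNA was recovered from cells of cluster 7 than from the cells beside them. The median was 4786 UMIs and 2016 genes per cell, against 6769 and 2935 in all other cells, 8485 and 3523 in cluster 3, and 5857 and 2657 in cluster 12. A fixed amount of synthetic spike-in RNA was added to every well, and in WT day 4 wells of cluster 7 and of other cells it gave a median of 115 and 117 UMIs. Cell UMIs per spike-in UMI were 61.7 in cluster 7 and 95.3 in the other cells of that library. The same ratio was 352 and 491 at WT day 0, 128 and 179 at day 7, and 52.3 and 66.5 at day 10. Cluster 7 was thus lower in 4 of 4 WT libraries, at 0.648 to 0.786 of the other cells. The part of this lower recovery in the gene differences below was not tested beyond thinning every cell to 2500 UMIs, which is named where it moves a value.

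**Figure D2:**
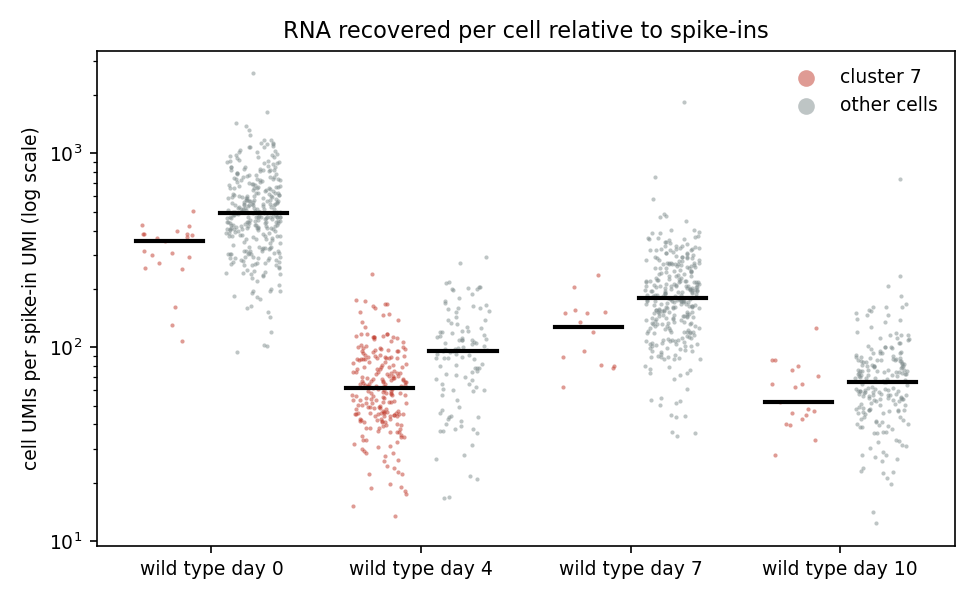
UMIs of cell RNA per spike-in UMI for each cell (log scale, vertical axis) in the 4 WT libraries (horizontal axis), with cells of cluster 7 in red, other cells of the library in grey, and bars at the medians. The red medians lie below the grey ones in each library, at 61.7 against 95.3 on day 4.

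Over all genes, cluster 7 was closest to 2 other clusters, with Spearman rho of pooled levels at 0.943 for cluster 2 and 0.939 for cluster 12 across 10844 genes, a description across genes that share depth and libraries. Cluster 3, which held 307 of the 340 undifferentiated WT cells, stood at 0.892. Genes were counted as past the fold when the log2 ratio of pooled UMI CPM, with 5 UMI CPM added to both sides, was above 1 in size and the higher side had at least 20 UMI CPM. Of 7752 genes at that level, 399 (5.15%) were higher and 847 (10.9%) lower in cluster 7 than in all other cells. Against cluster 3 the counts were 791 (10.5%) and 1098 (14.6%) of 7533 genes, against cluster 12 they were 200 (2.65%) and 505 (6.69%) of 7547, and against the other cells of the WT day 4 library 280 (3.76%) and 784 (10.5%) of 7447. The last of these has the same library and plate on both sides. These genes also made the clusters, so the counts describe the cluster and test nothing, and cluster 7 cells and the compared cells of days 0, 7, and 10 were in different libraries. The totals depended on the prior and on depth: within the WT day 4 library, 1064 genes became 396 with 20 UMI CPM added and 1795 when cells were thinned to 2500 UMIs, and against cluster 12, 705 became 239 and 1183. The median log2 ratio of all genes was -0.22 against all other cells, -0.23 against cluster 3, and -0.18 in the other comparisons.

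Among the genes that led cluster 7 were the lysosomal gene Ifi30 and the iron storage gene Ftl1. Ifi30, a thiol reductase of the lysosome (chr8:70762774-70766663, minus strand, GRCm38), was at 1329 UMI CPM (Poisson 95% interval 1272 to 1387), against 164 in all other cells, 144 in cluster 3, and 262 in cluster 12. It was high in the cluster's cells of each WT library, at 890 on day 0, 1496 on day 4, 924 on day 7, and 529 on day 10, while the other cells of those libraries held 145, 351, 117, and 63.7. Cluster 7 ranked highest of the 22 clusters for Ifi30, ahead of cluster 9 at 815. Ftl1, the ferritin light chain that stores iron, was at 4047 UMI CPM against 518 in cluster 3 and 1117 in cluster 12. Its processed copies Ftl1-ps1 and Ftl2-ps were higher as well, and because reads of near-identical copies may be split between them, the level of each is uncertain. Cd68, a lysosomal membrane glycoprotein, was at 188 against 47.3 UMI CPM within the WT day 4 library and at 310 against 13.2 within WT day 10.

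Lysosome and autophagy genes were higher together, in a list of 52 genes drawn up after values had been seen. Against the other WT day 4 cells 17 of the 46 tested were past the fold upward and 2 downward, with a median log2 ratio of 0.72 beside -0.18 for all genes. Within that library the cathepsins Ctsb and Ctsd, which digest protein in the lysosome, were at 322 and 143 UMI CPM against 119 and 61.2. The proton pump subunit Atp6v0d1 was at 532 against 211, and Sqstm1, a cargo receptor of autophagy, at 681 against 319. Ctsc, another cathepsin, and Rragd, a nutrient sensing GTPase, were the 2 lower members. Against cluster 3 the counts were 23 higher and 2 lower of 45 with a median of 1.03, and against cluster 12 they were 15 and 1 of 46 with a median of 0.64. With 20 UMI CPM added in place of 5, since libraries with 14 to 21 cells of the cluster are shallow, the list's median was 1.02 at WT day 0, 0.68 at day 4, 0.66 at day 7, and 0.53 at day 10, above 0 in 4 of 4. The wider list of iron storage and peroxide defence, also drawn up after values had been seen, had members in both directions. In that list 4 of 22 were higher (Ftl1, Gpx4, Hmox1, Mt1) and 2 lower within the day 4 library. Of all genes there, 3.76% were higher and 10.5% lower. The list's median log2 ratio was -0.0007, beside -0.18 for all genes. Fth1, the ferritin heavy chain, had log2 ratios of 0.009, 0.26, -0.26, and -1.19 within WT days 0, 4, 7, and 10, with 20 UMI CPM added.

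Gadd45b, Gadd45g, and a few stress and clock genes were also high. Gadd45b, a stress-induced growth arrest gene, was at 181 UMI CPM (160 to 203) against 25.5 in all other cells, and its level in the cluster's WT cells was 129, 195, 106, and 146 from day 0 to day 10, against 17.2, 37.6, 15.1, and 7.76 in the cells beside them. Its paralog Gadd45g was at 121 (105 to 140) against 13.3 in cluster 12. In the cluster's cells Gadd45g was at 86.2 UMI CPM on WT day 0 and 143 on day 4. It had 0 UMIs on day 7, which allows up to 45.4 UMI CPM (3 counts of the total), and 1 UMI on day 10. The later pools were thus too small to place its level near 0. Gadd45a, another paralog, was not high. Its log2 ratios within the WT libraries were -0.54, -0.034, 0.016, and -0.51 from day 0 to day 10, with 20 UMI CPM added. The transcriptional repressors Bhlhe40 and Bhlhe41, which act in the circadian clock and in hypoxia, were at 290 and 93.2 against 112 and 20.5 in cluster 12. Crebrf, a regulator of the stress response in the endoplasmic reticulum, was at 387 against 124, and Per1, a clock gene, at 77.97 against 19.9. In the list of growth arrest and feedback genes, drawn up after values had been seen, 8 of 22 were higher and 2 lower within the WT day 4 library, Cdkn1a among the former and Foxo1 and Sesn3 the latter. In the same comparison 2 of 13 genes of the unfolded protein response were higher (median -0.018) and 2 of 12 immediate early and heat shock genes (median 0.28).

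The DNA before the start of some of these genes is shown because leading members of both groups carry the same letters there. The motif CACGTG, a binding sequence of basic helix-loop-helix factors that reads the same on both strands, was searched in the 250 bases before each RefSeq gene start (GRCm38.p6). It lay in 5.93% of all 27025 promoters, in 9.41% of the 5930 promoters of genes tested against all other cells, and in 5 of the 13 named genes higher in cluster 7 that matched the table (Ifi30, Gadd45b, Gadd45g, Bhlhe41, Sycp3), while Ftl1 and Cd68 lacked it. Fewer than 80% of the genes past the fold had a promoter in the table, so shares over those sets are void and are not given, and since the 13 were chosen by their ratio, nothing is read from their count. Below, the motif is in capitals, 196 bases before the start in Ifi30 (chr8:70766664-70766913, minus strand) and 142 before it in Gadd45g (chr13:51846425-51846674, plus strand).
Ifi30: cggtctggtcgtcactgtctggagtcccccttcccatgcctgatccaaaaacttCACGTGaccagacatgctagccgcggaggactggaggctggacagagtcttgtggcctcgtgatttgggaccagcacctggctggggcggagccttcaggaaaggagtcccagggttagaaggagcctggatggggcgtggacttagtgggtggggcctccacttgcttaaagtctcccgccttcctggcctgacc
Gadd45g: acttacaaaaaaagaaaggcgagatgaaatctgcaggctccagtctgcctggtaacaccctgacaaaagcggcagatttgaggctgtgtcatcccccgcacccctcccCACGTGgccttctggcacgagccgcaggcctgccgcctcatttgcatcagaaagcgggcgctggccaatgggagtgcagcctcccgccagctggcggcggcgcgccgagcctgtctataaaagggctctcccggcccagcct

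Genes of glycolysis and of the response to low oxygen were higher, most of all against undifferentiated cells. Of 24 tested genes 14 were past the fold upward and 0 downward against cluster 3 (median 1.10), and 5 and 0 against cluster 12 (0.43). Within the WT day 4 library 4 were higher, namely Aldoa at 4275 against 2114 UMI CPM, Gpi1 at 839 against 348, Ero1l at 450 against 125, and Vegfa at 155 against 45.1. Aldoa and Gpi1 are enzymes of glycolysis, Ero1l drives disulfide formation, and Vegfa is the growth factor of blood vessels. Ndufa4l2, a hypoxia-induced mitochondrial protein, was at 134 against 30.1, and Ndrg1, a stress and differentiation gene, at 134 against 26.9. The list's median was above 0 within each of the 4 WT libraries, at 0.82, 0.39, 0.61, and 0.41 with the larger prior. Among the leading genes of unlike function, the water and glycerol channel Aqp3 was at 62.8 against 5.37 UMI CPM in that library, and the glycosyltransferase Large2 at 64.4 against 8.59.

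**Figure D3:**
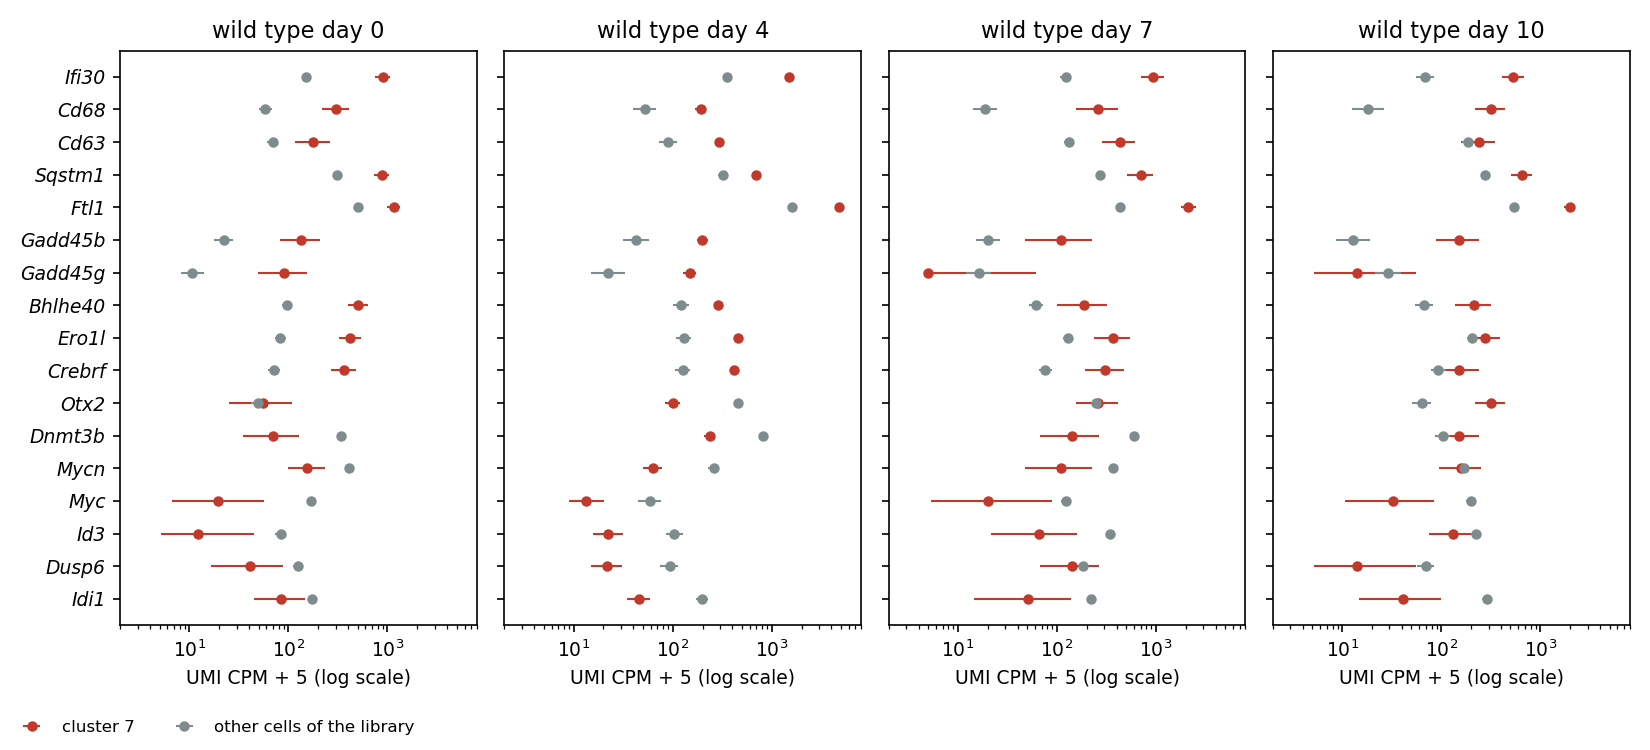
Pooled level of 17 genes (vertical axis) as UMI CPM + 5 on a log scale (horizontal axis) in cluster 7 (red) and in the other cells of the same library (grey) for the 4 WT libraries, with Poisson 95% intervals. Ifi30 lies to the right in cluster 7 in each panel (1496 against 351 UMI CPM on day 4), whereas Otx2 lies to the left on day 4 only (94.98 against 456).

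Formative genes were low in cluster 7 at day 4. Otx2, the homeodomain factor of the formative state (chr14:48657677-48673819, minus strand), was at 110 UMI CPM (94.5 to 128), between 41.1 in cluster 3 and 416 in cluster 12. Within the WT day 4 library Otx2 was at 94.98 (78.4 to 114) in cluster 7 and 456 (414 to 502) in the other cells. This order of Otx2 did not extend to the other days, where the cluster held 50.3 against 44.6 on day 0, 257 against 242 on day 7, and 310 against 58.2 on day 10. Fgf5, the classical epiblast growth factor, had 1 UMI in the 292 cells, against 25.9 UMI CPM in cluster 12. Dnmt3b, the de novo DNA methyltransferase, was at 230 against 807 UMI CPM within the WT day 4 library, and Pou3f1, a POU factor of the epiblast, at 57.0 against 174. Of 18 formative and primed genes tested within that library 0 were past the fold upward and 11 downward, with a median log2 ratio of -1.18. Of all genes in that comparison 3.76% were upward and 10.5% downward. Against cluster 12 the counts were 0 and 10 of 18, beside 2.65% and 6.69% of all genes. Against cluster 3 they were 2 and 3 of 15, beside 10.5% and 14.6%. With 20 UMI CPM added, 0 of 19 were upward and 3 downward within WT day 0 (median -0.32). The counts were 0 and 7 on day 7 (-0.50) and 3 and 1 on day 10 (-0.16). Over all 7752 genes on this scale, 285 were upward and 406 downward on day 0. On day 7 these were 582 and 1079, and on day 10 they were 575 and 811. Dnmt3b had log2 ratios of -2.06, -1.72, -1.98, and 0.48 from day 0 to day 10.

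Targets of Nodal, FGF, and BMP signals were low in the same comparison. Nodal, the ligand, was at 6.61 UMI CPM in cluster 7 and 32.2 in the other WT day 4 cells, and its feedback inhibitors Lefty1 and Lefty2 were at 78.5 and 101 against 275 and 316. Of 11 Nodal pathway genes 6 were past the fold downward and 0 upward, beside 10.5% and 3.76% of all genes in this comparison. The median log2 ratio of the list was -1.15, beside -0.18 for all genes. Dusp6, the phosphatase that ERK induces against itself, was at 16.5 against 88.1, and Spred1, an inhibitor of Ras signaling, at 22.3 against 74.1. Among 12 genes of FGF and ERK feedback 6 were lower and 0 higher (median -1.06). Id1 and Id3, direct BMP targets that block differentiation factors, were at 65.2 and 17.3 against 218 and 98.8. Of 10 BMP and Id genes 5 were lower and 0 higher (median -1.04). At WT day 10 the order of some genes was the opposite, with log2 ratios of 1.31 for Nodal and 1.48 for Lefty2 and medians of 0.11 for the Nodal and 0.47 for the FGF list, with 20 UMI CPM added. On the same scale these 2 medians were -0.080 and -0.47 on day 0 and -0.99 and -0.35 on day 7. The BMP and Id list stayed below 0 in each WT library, at -0.32, -0.67, -0.89, and -0.90 from day 0 to day 10.

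Klf4, Socs3, and Tfcp2l1, which respond to LIF or belong to the naive network, lay between cluster 3 and cluster 12. Klf4, a naive factor downstream of LIF, was at 34.9 UMI CPM, against 206 in cluster 3 and 18.7 in cluster 12. Socs3, the feedback inhibitor that STAT3 induces, was at 49.4, 232, and 21.1, and Tfcp2l1, a naive factor, at 121, 185, and 61.5. Against cluster 3, 10 of 18 naive genes were past the fold downward and 0 upward. Against cluster 12, 2 of 17 were upward and 2 downward, with a median of 0.12. Within the WT day 4 library 3 of 15 were upward (Spp1, Tbx3, Tfcp2l1) and 2 downward (Dppa3, Tdh). Of 11 LIF and STAT3 genes there 6 were upward (Junb, Pim1, Pim3, Socs3, Stat3, Tfcp2l1) and 2 downward (Myc, Sgk1), with a median of 1.03. Gbx2, also a LIF target, had the lowest ratio against cluster 3, at 5.07 against 156 UMI CPM, and was below cluster 12 (18.7) as well. Of 12 core pluripotency genes 6 were downward against cluster 3, Utf1 among them, and 0 upward (median -1.10). Against cluster 12, 3 of 11 were downward, and within the WT day 4 library 2 of 11, with 0 upward in both. In the later libraries Esrrb and Tfcp2l1 were higher in the cluster's cells than in the others. Esrrb was at 197 against 27.2 UMI CPM in the other cells on day 7 and 228 against 14.0 on day 10, and Tfcp2l1 at 197 against 25.8 and 283 against 23.3.

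Myc and the genes of sterol synthesis were low within each WT library. Myc, which drives growth and ribosome production, was at 10.1 UMI CPM, below both cluster 3 (165) and cluster 12 (38.6), and ranked 21 of 22 clusters. Within the libraries Myc was at 14.4 against 166 on WT day 0, 8.26 against 53.7 on day 4, 15.1 against 118 on day 7, and 27.3 against 195 on day 10. Its relative Mycn was at 57.8 against 255 within WT day 4, while on day 10 its log2 ratio was -0.071 with 20 UMI CPM added. In the list of ribosome biogenesis genes, drawn up after values had been seen, 7 of 39 were lower and 0 higher within WT day 4, and 13 of 38 were lower against cluster 3. At WT day 10 only 1 of 39 was lower, beside 811 of all 7752 genes, and the list's median was 0.13 with the larger prior. Idi1, an enzyme of the mevalonate pathway, was at 40.5 against 192.2 UMI CPM within WT day 4 and ranked lowest of the 22 clusters. Of 19 sterol synthesis genes 8 were lower and 0 higher, with a median of -0.93. The sterol median was below 0 within each WT library, at -0.44, -0.65, -1.02, and -1.09 from day 0 to day 10 with the larger prior.

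**Figure D4:**
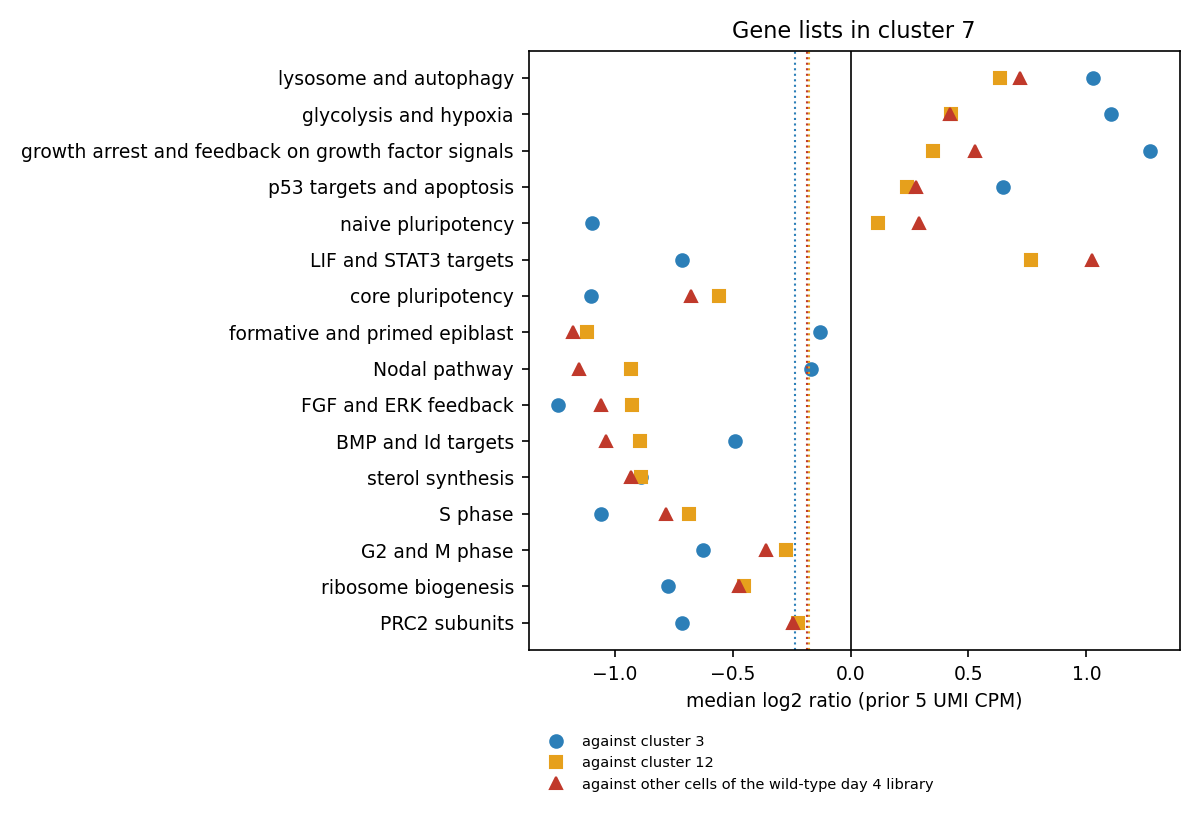
Median log2 ratio of cluster 7 for 16 gene lists (vertical axis), computed with 5 UMI CPM added (horizontal axis), against cluster 3 (blue circles), cluster 12 (yellow squares), and the other cells of the WT day 4 library (red triangles), with dotted lines at the median of all genes in each comparison. Lysosome and autophagy genes lie at 1.03, 0.64, and 0.72, and formative genes at -0.13, -1.12, and -1.18.

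The PRC2 subunits themselves were expressed. Mtf2 was at 411 UMI CPM, below cluster 3 (785) and cluster 12 (632), as were Jarid2 (239 against 592 and 443) and Eed (200 against 497 and 227). The methyltransferase Ezh2 was at 136 against 193 and 165, and Suz12, a core subunit, at 323 against 297 and 284. Of 10 subunits tested against cluster 3, only Ezh1, the alternative methyltransferase, was past the fold upward, at 86.2 against 26.9 UMI CPM. Eed, Epop, and Jarid2 were past it downward. Of all genes in that comparison 10.5% were upward and 14.6% downward. Against cluster 12 only Rbbp7, a histone binding subunit, was past the fold, downward at 264 against 549. In the 14 mutant cells of the cluster, which pool 3 genotypes, Mtf2 was at 155 UMI CPM.

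At a finer resolution of 8.0 the authors' clustering divided these cells mainly into sub-clusters 4 and 21. Sub-cluster 4 held 159 cells, all of cluster 7, of which 146 were WT day 4. Of the 118 cells of sub-cluster 21, 116 were in cluster 7, with 19 cells of WT day 0, 66 of day 4, 13 of day 7, and 15 of day 10. Nearly all cluster 7 cells of the other WT days thus fell in sub-cluster 21. Sub-cluster 4 was the shallower, with a median of 3849 UMIs and 53.2 UMIs per spike-in UMI against 6438.5 and 89.4. Among WT day 4 cells, 173 of 7157 genes were past the fold upward and 969 downward in sub-cluster 4 relative to sub-cluster 21. The lysosome list did not separate them, with 0 of 45 upward, 3 downward, and a median of -0.14 beside -0.21 for all genes. Gadd45g did, at 236 UMI CPM in sub-cluster 4 and 37.0 in sub-cluster 21, and so did the forkhead gene Foxc2, at 57.3 and 1.94. LIF and STAT3 genes were lower in sub-cluster 4, 4 of 11 past the fold with a median of -0.76.

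Bulk RNA of other WT cells, which played no role in the clustering, allowed a test over samples. EBs of the WT lines J1, JM8, and Pcl1-3 WT were sequenced at days 0, 2, 4, and 7, with 1 sample per line and day, and fitted together with line as a block. Per the file headers the day 0 samples were monolayers, so time and the change from monolayer to EB cannot be told apart. The lines are different cell lines and not repeats of 1, and in bulk RNA a change in the number of cells of a type and a change in RNA per cell cannot be told apart. Between day 0 and day 4, 1174 of 15022 genes rose (7.82%) and 1212 fell (8.07%) at an adjusted p under 0.05 in limma. Between day 4 and day 7 only 20 genes rose (0.133%) and 7 fell (0.0466%), among them 1 and 1 of the 1073 genes lower in cluster 7 than in cluster 3. The calls rested on JM8: without this line 2 genes passed between day 0 and day 4. Of the 559 genes higher in cluster 7 than in cluster 3 and tested in both data sets, 80 rose (14.3%) and 12 fell (2.15%), beside 7.16% and 7.81% of the 7124 genes tested in both. Of the 1073 lower genes, 47 rose (4.38%) and 169 fell (15.8%). The direction was not the same in the other comparisons. Of the 824 genes lower in cluster 7 than in all other cells, 173 rose (21.0%) and 42 fell (5.10%), beside 8.61% and 6.81% of the 7340 genes tested in both. Of the 271 higher in that comparison, 21 rose (7.75%) and 15 fell (5.54%). Of the 487 genes lower than in cluster 12, 96 rose (19.7%) and 20 fell (4.11%). By line, medians of day 4 minus day 0 on the log2(CPM + 2) scale were taken for the comparison with cluster 3. Over the genes higher than in cluster 3 the median was 0.44 in JM8, 0.46 in Pcl1-3 WT, and -0.021 in J1. The same medians for the lower genes were -0.32, -0.11, and 0.046, so that J1 did not share the direction of the other lines.

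**Figure D5:**
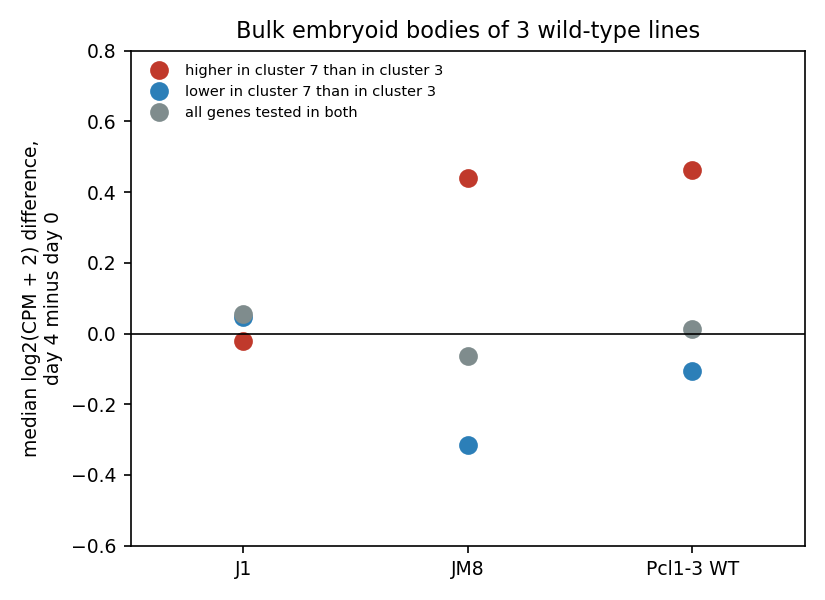
Median difference in log2(CPM + 2) between day 4 and day 0 of bulk EBs (vertical axis) in each of 3 WT lines (horizontal axis), for genes higher (red) or lower (blue) in cluster 7 than in cluster 3 and for all genes tested in both (grey). The higher genes lie at 0.44 in JM8 and 0.46 in Pcl1-3 WT, and near 0 in J1.

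For the genes that led cluster 7, EBs gave mixed results. Bhlhe41 was at 7.57, 1.11, and 4.63 CPM at day 0 and 14.5, 59.96, and 46.3 CPM at day 4 in J1, JM8, and Pcl1-3 WT. The levels did not overlap, and it rose by 3.16 on the log2 scale (SE 0.76, adjusted p = 0.022 in limma). Cd63, a tetraspanin of lysosomes, rose from 47.3 to 62.4 CPM at day 0 to 105 to 167 CPM at day 4 (log2 fold change 1.24, SE 0.26, adjusted p = 0.014 in limma). Neither call was kept without JM8, where the log2 fold changes were 2.05 for Bhlhe41 and 0.96 for Cd63, and that of Bhlhe41 was also lost without Pcl1-3 WT (3.11). Ftl1 was at 1614, 3265, and 3105 CPM at day 4 against 1878, 1863, and 1324 at day 0, lower in J1 and higher in the other lines, and did not pass (log2 fold change 0.61, adjusted p = 0.15 in limma). Gadd45b had overlapping levels of 13.4 to 40.5 and 19.3 to 34.6 CPM at the 2 days, and Gadd45g, at 2.13 to 4.37 and 5.46 to 8.88 CPM, did not pass (adjusted p = 0.073 in limma). Otx2 differed between lines at day 0, from 1.16 in Pcl1-3 WT to 39.5 CPM in J1, and did not pass (adjusted p = 0.14 in limma). Without J1 both passed, Otx2 at 4.49 and Ftl1 at 1.06 on the log2 scale, and without Pcl1-3 WT the fold change of Otx2 was 1.498. Formative genes as a list rose in EBs by day 4 relative to day 0, with 10 of 26 up and 1 down. Fgf5 reached at least 16.2 CPM in each line from at most 0.337. The low level of formative genes in cluster 7 was relative to the other WT day 4 cells, which is a different baseline. Against cluster 3, which held most undifferentiated WT cells, 2 of 15 formative genes were past the fold upward and 3 downward. Their median log2 ratio was -0.13, beside -0.23 for all genes in that comparison.

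Dusp6 and Id3, which were low in cluster 7, rose in EBs. Dusp6 went from 15.1 to 23.8 CPM at day 0 to 55.2 to 96.1 CPM at day 4 (log2 fold change 1.91, SE 0.22, adjusted p = 0.0015 in limma), and Id3 from 7.78 to 9.95 CPM to 16.1 to 68.7 CPM (1.95, SE 0.42, adjusted p = 0.016). Naive genes fell, 12 of 20 with 0 up, Klf4 by 3.39 on the log2 scale (SE 0.33, adjusted p = 0.00083 in limma). Socs3 fell from 155 to 165 CPM to 14.4 to 23.5 CPM in the 3 lines, a log2 fold change of -3.16 (SE 0.18, adjusted p = 0.00014 in limma), and LIF and STAT3 genes fell in 7 of 14 with 1 up. Without JM8 the call of Socs3 was kept (-3.03), while those of Dusp6 (1.84), Id3 (1.96), and Klf4 (-3.42) were lost at much the same fold change. Sterol synthesis genes also fell, 10 of 20 with 0 up. Of 50 lysosome genes 7 rose and 5 fell. Of 25 genes of glycolysis and hypoxia 2 rose and 4 fell. Of all genes 7.82% rose and 8.07% fell. Both lists had rises and falls, and no direction is read for either.

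Directed differentiation of WT E14 monolayers was sequenced in 2 series, with 2 libraries per time that the study describes as technical, so that p-values measure only that spread. At 24 h of mesoderm induction 854 of 18361 genes rose (4.65%) and 424 fell (2.31%) relative to undifferentiated cells, and at 24 h of endoderm induction 620 of 19261 rose (3.22%) and 403 fell (2.09%), called in edgeR where the log2 fold change exceeded 1 in size and the adjusted p was below 0.001. Without replicate 2, which leaves 1 library a time, the calls dropped from 1278 to 451 and from 1023 to 418. Of the genes higher in cluster 7 than in cluster 3, 63 of 582 rose (10.8%) and 30 fell (5.155%) in mesoderm. Among the 7209 genes tested in both, 5.13% rose and 2.73% fell. In endoderm 41 of 588 rose (6.97%) and 32 fell (5.44%), beside 3.53% and 2.47% of 7216 genes. Both shares were thus above those of all genes, upward and downward. Lysosome genes rose in both, 19 of 51 with 1 down in mesoderm and 9 of 51 with 1 down in endoderm. Ifi30 was at 52.5 and 56.7 CPM at 24 h of mesoderm against 32.4 and 21.1 CPM undifferentiated (log2 fold change 1.06, adjusted p = 0.00012 in edgeR), a call lost without replicate 2 (0.72). In endoderm Ifi30 was at 46.7 and 38.3 against 30.3 and 20.9 CPM, which is below the fold limit and was not called (log2 fold change 0.71, adjusted p = 0.0042 in edgeR).

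Other genes named for cluster 7 went both ways. Bhlhe41 rose in mesoderm (log2 fold change 1.97, adjusted p = 0.00086 in edgeR) and was not called in endoderm (1.32). Cd63 rose in mesoderm (1.24, adjusted p = 1.1e-05 in edgeR) and was not called in endoderm (0.83). Gadd45b, Ndrg1, and Ndufa4l2 fell in both series. Gadd45b was at 1.69 and 1.89 CPM at 24 h of mesoderm and at 1.38 and 1.09 at 24 h of endoderm, against 9.97 to 12.5 CPM in the 4 undifferentiated libraries (log2 fold changes -2.75 and -3.20 in edgeR). Ndrg1 fell by 2.71 on the log2 scale in mesoderm and by 2.91 in endoderm. Ndufa4l2 was at 0.0641 to 0.218 CPM in the 4 libraries of 24 h and at 8.61 to 15.4 CPM in the 4 undifferentiated ones. In each series 12 of 25 glycolysis and hypoxia genes fell and 0 rose, Ldha, Pgk1, and Pkm among them. Lysosome genes thus changed in the same direction in monolayers as in cluster 7 against cluster 3, while genes of glycolysis and hypoxia changed in the opposite one. In EBs the lysosome list had no such direction, with 7 of 50 up and 5 down.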

How the data were processed

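Single live cells were sequenced with SORT-seq in 16 libraries, and the authors deposited raw UMI counts of 15830 genes for 4949 kept cells with their cluster numbers. Counts of cells were pooled and divided by their total to give UMI CPM, and log2 ratios were computed with 5 UMI CPM added (pandas 2.3.3, numpy 2.4.6, and scipy 1.17.1 in Python 3.11.15). Doublets were not removed here, and no mitochondrially encoded genes were in the table. Spike-in values, 1 fewer than the wells of a library, were aligned by a shift of 1 well, which correlated better with cell UMIs in 16 of 16 libraries. Cells with under 2500 UMIs (39 of cluster 7) were left out wherever cells were thinned.

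For bulk EBs, the authors deposited a signal per gene, counts divided by DESeq2 size factors, and whole reads were recovered for 100% of values below 1000 reads within 0.01 read (5450149 to 15605645 reads per sample). Of the 46 columns 23 were used, 2 columns of a sample were averaged, and the other 23 were not used here. They were fitted with limma 3.58.1 (R 4.3.3, prior count 2, trend, at least 1 CPM in 3 samples) with line as a block, since the same line was sampled at each day (deviations within a line correlated at 0.26 to 0.67). For the mesoderm and endoderm series, the authors deposited estimated counts from Salmon (9111880 to 16898264 and 9889592 to 16372804 per library), which were rounded and tested with edgeR 4.0.16 across 24 libraries each. Adjusted p-values are Benjamini-Hochberg values over all genes tested. Scripts were tested on simulated data.

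Named genes were the 10 highest and 10 lowest ratios per comparison with at least 50 UMI CPM, members of the gene lists, and Mtf2, Jarid2, and Eed. In bulk, the same genes were read. The members and all lists were chosen with earlier results of these data known, and 4 lists (lysosome and autophagy, iron storage and peroxide defence, ribosome biogenesis, growth arrest) after their values were seen. Gene positions are from GENCODE vM21. Alternatives tried were other priors, filters, scalings, and tests, thinned cells, other choices of cells, and leaving out lines or libraries.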

Additional observations from a re-analysis of the deposited data

How the results depend on the processing

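The single-cell totals moved with the prior and with thinning. With 20 UMI CPM added, 568 genes were past the fold against all other cells, 1066 against cluster 3, 239 against cluster 12, and 396 within the WT day 4 library, from 1246, 1889, 705, and 1064. Thinned cells gave 1183 against cluster 12 and 1795 within the WT day 4 library, and WT day 4 cells of cluster 7 alone gave 1076 against cluster 12. With at least 2500 UMIs, the share was 0 in Eed null day 4 and day 7. Of single-cell gene values, 3752 kept their sign within 0.5 on the log2 scale, 522 moved by more, and 9 changed sign. Hprt (1.10), Pmaip1 (0.21), and Tex15 (0.16) did so against other WT cells only, a choice made after seeing the data. Chac1 (0.24), Hhex (0.090), and Insig1 (-0.18) did so against cluster 3, and Dnd1 (0.0053) against cluster 12, with cluster 7 cells of other libraries only. Hsd17b7 (0.17) did so in thinned cells, and Dab2 (0.060) against cluster 12 cells of the WT day 4 library.

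Of the bulk totals, day 4 against day 0 gave 705 calls with no replicate block and 2 to 2148 when a line was left out, from 2386, the lowest without JM8. Day 7 against day 4 gave 27 calls, 6 with no replicate block, 13 with a prior count of 0.5, 54 with no filter, and 0 (without JM8) to 313 without a line. With 1 of the 2 replicates left out, mesoderm gave 451 to 1160 calls and endoderm 418 to 882, the lone library being assumed to vary like the other groups. With a replicate block these series gave 1248 and 1027 calls, but same-numbered libraries did not deviate together (correlations 0.063 and -0.0077). Signs changed in EBs for Ndufa4l2 (-0.96 to 0.16, the latter without J1) and Gadd45b (-0.40 to 0.84, the former without JM8), and in endoderm for Gadd45g (-0.34 without replicate 2 to 0.97). The causes were not tested. With 1 library per genotype and day, spread between cultures was not measured, and 14 to 21 cells at days 0, 7, and 10 leave genes under about 50 UMI CPM uncertain there.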

Other observations

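Some S phase genes were low in cluster 7 at day 4. Of 19 S phase genes tested within the WT day 4 library 6 were past the fold downward and 0 upward (Ccne1, Cdc6, Dut, Fen1, Slbp, Tyms), with a median log2 ratio of -0.78. Of all genes there, 10.5% were downward and 3.76% upward. Cdc6, which loads the replicative helicase, had 4 UMIs in the 292 cells, or 2.54 UMI CPM against 33.2 in cluster 12, and Ccne1, which drives entry into S phase, was at 120 against 281. Of 22 G2 and M phase genes 0 were past the fold in either direction there, with a median of -0.36 beside -0.18 for all genes. At WT day 10, with 20 UMI CPM added, 12 of 22 G2 and M phase genes were downward (median -1.09) and 3 of 20 S phase genes (median -0.63). Of all 7752 genes 811 were downward on that scale. Among 14 p53 and apoptosis genes 2 were upward (Cdkn1a and Plk2) and 0 downward. Ddit3 and Herpud1, both induced by unfolded protein, were the members past the fold among 13 genes of that response. These are descriptions of pooled cells, and cell cycle phases were not called.

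Sycp3, a component of the meiotic chromosome axis, was high in cluster 7 at 254 UMI CPM against 39.0 in all other cells, and also in cluster 12 at 189. Within WT libraries it was at 78.98 against 52.98 on day 0, 259 against 240 on day 4, 439 against 52.97 on day 7, and 328 against 40.4 on day 10. Of 8 germ cell genes tested against cluster 12 none was past the fold upward and 4 were downward, Dppa3 among them at 25.99 against 142 UMI CPM.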
